A study of Mus musculus with 9 samples.

Results

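The milk protein genes were 9 genes that encode secreted proteins of mouse milk: the caseins Csn1s1, Csn2, Csn1s2a, Csn1s2b and Csn3, the whey proteins Lalba and Wap, the milk fat globule protein Mfge8, and Wfdc18, a small secreted protein of the whey acidic protein family. Their 14 probe sets were taken as those whose platform annotation names exactly 1 gene, out of 22626 probe sets other than controls. All 9 genes had at least 1 such probe set. They were measured on 9 MOE430A arrays, with 3 arrays each of tumorspheres (TMS), mammospheres induced to differentiate (diffMMS) and mammospheres (MMS). Tumorspheres are non-adherent spheres from mammary tumors of MMTV-Neu [N2O2] mice, and each culture came from a tumor of its own. In these mice a mouse mammary tumor virus promoter drives Neu in mammary epithelium. Mammospheres came from mammary glands of virgin female FVB/N mice and were kept in the same medium for stem cells, and both kinds of sphere were harvested at passages 3 to 5. For differentiation, mammosphere cells were dispersed, plated on collagen and kept for 7 days in medium with serum. Separate preparations served as replicates, named here by their array codes.

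Milk proteins are made by luminal alveolar cells of the mammary gland in late pregnancy and lactation. Prolactin acts through its receptor, the kinase JAK2 and the transcription factor STAT5, which with Elf5 and the glucocorticoid receptor turns on casein and whey protein genes. Caseins assemble into micelles that carry calcium and phosphate, and whey proteins stay in solution. The genes are widely used as readouts of mammary secretory differentiation in culture.

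The 5 casein genes lie on chromosome 5 in the order Csn1s1, Csn2, Csn1s2a, Csn1s2b and Csn3, and Csn3 is parted from the others by the genes Prr27, Odam and BC037156. STAT5 binds the palindrome TTCNNNGAA, which reads alike on both strands. RefSeq (GRCm38.p6) gave the 250 bases before the transcription start for 7 of the 9 genes, and 2 of these, Csn1s1 and Csn2, held the palindrome. It was found in 7.02% of 32851 promoters of the same length. The promoters of both genes are shown because they share the palindrome while only 1 of them differed between the cultures, and that of Wfdc18 because the gene was among the most changed and its window holds no match. Capitals mark the palindrome.
Csn1s1, chr5:87665958-87666207, plus strand: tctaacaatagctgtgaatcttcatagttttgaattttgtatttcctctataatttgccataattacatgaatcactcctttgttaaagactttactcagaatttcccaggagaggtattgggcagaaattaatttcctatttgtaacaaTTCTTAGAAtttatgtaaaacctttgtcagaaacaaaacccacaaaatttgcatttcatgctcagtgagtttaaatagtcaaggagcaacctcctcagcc
Csn2, chr5:87699426-87699675, minus strand: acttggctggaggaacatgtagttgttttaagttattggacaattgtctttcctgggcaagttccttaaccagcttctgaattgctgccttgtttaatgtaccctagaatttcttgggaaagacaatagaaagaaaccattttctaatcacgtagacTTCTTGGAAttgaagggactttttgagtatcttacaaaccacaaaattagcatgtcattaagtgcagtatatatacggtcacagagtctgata
Wfdc18, chr11:83708754-83709003, plus strand: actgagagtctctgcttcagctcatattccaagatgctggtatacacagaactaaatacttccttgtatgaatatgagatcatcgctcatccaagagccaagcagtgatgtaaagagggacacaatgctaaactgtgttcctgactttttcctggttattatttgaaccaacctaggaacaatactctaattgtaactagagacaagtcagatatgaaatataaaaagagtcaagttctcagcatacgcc
The palindrome began 100 bases before the start of Csn1s1 and 93 bases before that of Csn2. No match was found in this window for Csn1s2a, Lalba, Wap, Mfge8 or Wfdc18. A match is a run of letters and was not tested for binding.

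Tumorspheres differed from both mammosphere cultures at 5 of the 9 milk protein genes, namely Csn3, Wfdc18, Csn1s1, Lalba and Mfge8, and each was higher in tumorspheres. Csn2, Csn1s2a, Csn1s2b and Wap did not pass the test in either comparison. By probe set, 6 of 14 were higher than in mammospheres and 0 were lower, where 14.3% of all probe sets tested passed, 6.5% higher and 7.78% lower. The groups did not overlap for 6 of the 14, beside 33.3% of all probe sets. Against mammospheres induced to differentiate the counts were again 6 and 0, where 23.7% of all probe sets passed, 12.2% higher and 11.4% lower. Here 7 of the 14 did not overlap, beside 37.4% of all probe sets. The median log2 fold change of the 14 probe sets was 0.09 against mammospheres and 0.08 against the differentiated cells, beside 0.00 and -0.02 over all probe sets, because the 8 others lay near 0. These comparisons share the tumorsphere arrays and are not independent. A call is an adjusted p under 0.05 from 1 limma fit to all 9 arrays, with Benjamini-Hochberg adjustment over the 22626 probe sets. The fit used log2 of the deposited intensity plus 8.67, quantile normalized, and log2 fold changes understate differences of dim probe sets. Array medians of intensity were 84 to 88.6 and lower quartiles 37.1 to 41.5, and the table holds no detection calls. The number of arrays limits the precision. With 3 arrays a group, and a variance estimated for all 3 groups at once, the standard errors understate the spread of a group that varies more than the others. The tumorsphere arrays carry codes in a run of their own, apart from the other 6, so that a difference between array runs and between tumorspheres and the rest cannot be told apart. In whole cultures, fewer cells of a type and less RNA per cell cannot be told apart either.

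**Figure D1:**
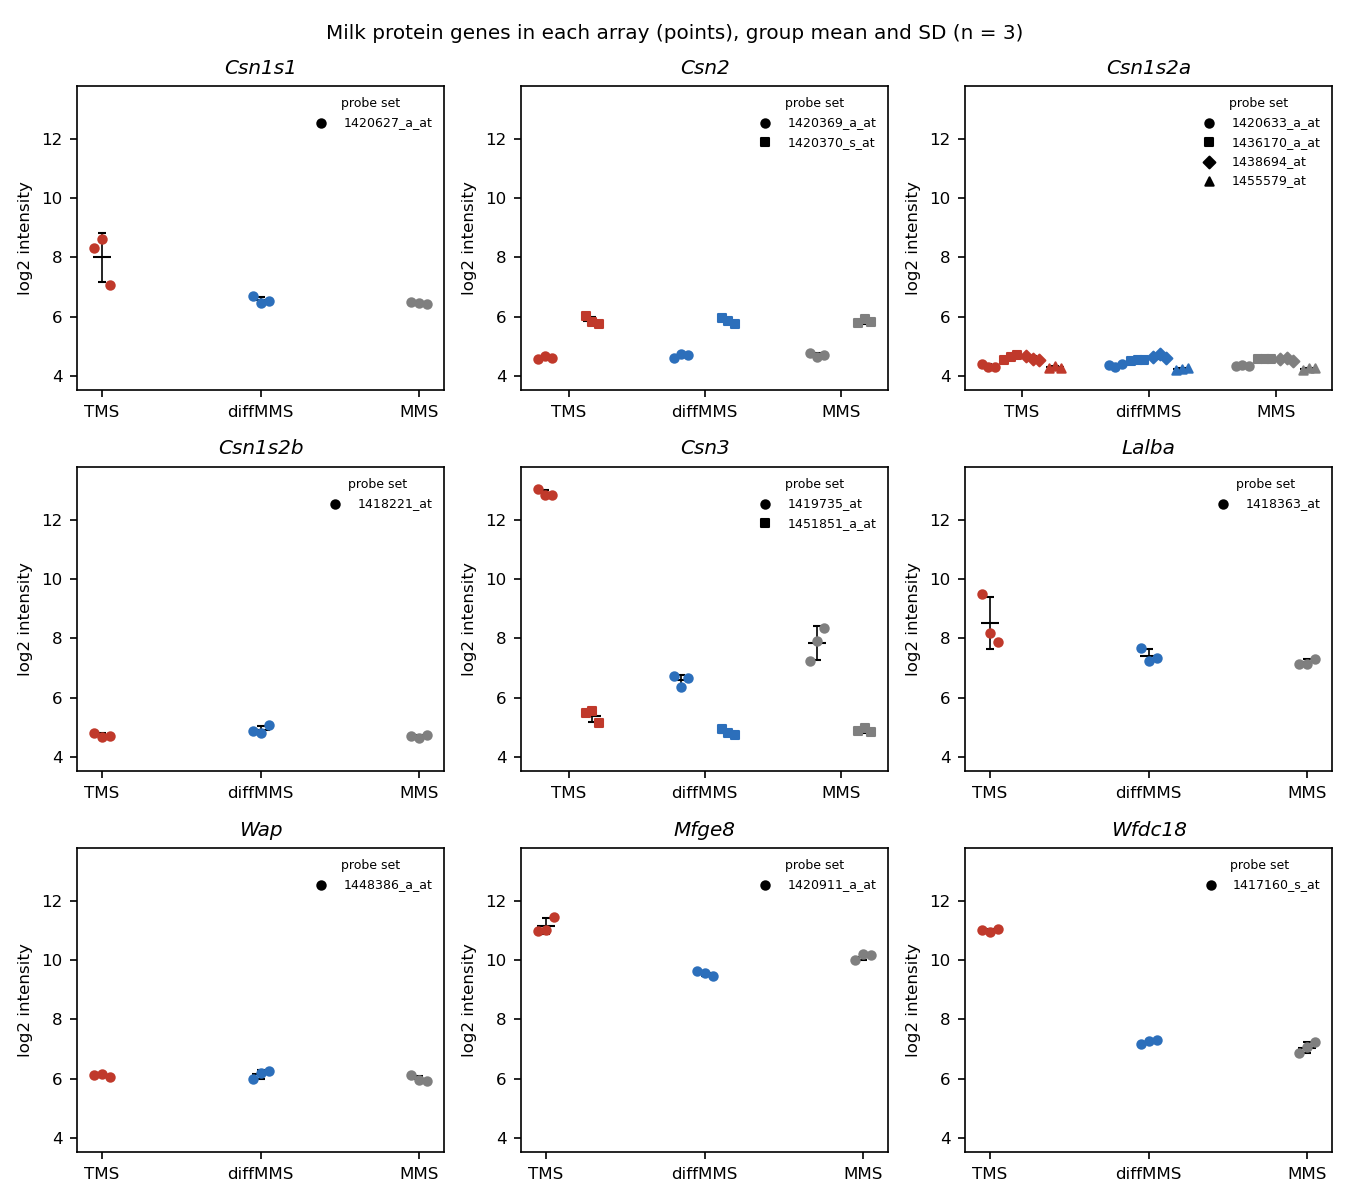
Log2 intensity (vertical axis) of each probe set of the 9 genes in tumorspheres (TMS), mammospheres induced to differentiate (diffMMS) and mammospheres (MMS), with 1 point per array, the group mean as a dash and the SD (n = 3) as a bar. Csn3 and Wfdc18 stand out in the tumorsphere arrays, with means of 12.92 and 11.02, while the points of Csn2, Csn1s2a and Wap of the 3 groups lie at nearly the same height.

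Csn3 encodes kappa-casein, which coats the casein micelle and keeps it in suspension. Its probe set 1419735_at read 8241, 7206 and 7463 in tumorspheres, 98.2, 73.9 and 94.2 after induced differentiation and 141, 243 and 339 in mammospheres. Every tumorsphere array was thus far above every other array, and the groups do not overlap. The mean intensity of tumorspheres was 31.7 times that of mammospheres and 86.0 times that of the differentiated cells. On the log2 scale tumorspheres were 5.08 above mammospheres (limma, standard error 0.218, adjusted p = 6.4e-08) and 6.33 above the differentiated cells (adjusted p = 2.8e-09). Among the 22626 probe sets of this fit, it had rank 2 from the top against mammospheres and rank 1 against the differentiated cells.
A second Csn3 probe set, 1451851_a_at, ran the same way at a far lower intensity. It read 36.9, 39.2 and 25.6 in tumorspheres, 22.9, 19.2 and 18.0 after induced differentiation and 20.3, 21.7 and 18.9 in mammospheres. Its log2 fold changes were 0.50 (standard error 0.0958, adjusted p = 0.00472 from limma) and 0.57 (adjusted p = 9.5e-04). With a pseudocount of 32 in place of 8.67 these were 0.30 and 0.34, still past the threshold. The probe sets thus differ in the size of the difference they report, and only the direction is shared. Why they differ was not tested.

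Csn1s1, the gene of alpha-s1-casein, was higher in tumorspheres with a wide spread between the tumors. Its intensities were 296, 376 and 127 in tumorspheres, 96.4, 80.4 and 84.2 after induced differentiation and 80.1, 77.3 and 75.6 in mammospheres. Array 1101A was the lowest of the tumorspheres and still lay above all 6 others. On the log2 scale the means were 8.001 ± 0.82 (SD, n = 3) in tumorspheres, 6.56 ± 0.12 in differentiated cells and 6.47 ± 0.023 in mammospheres. Against mammospheres the log2 fold change was 1.53 (limma, standard error 0.285, adjusted p = 0.00394), and it was 1.44 against the differentiated cells (adjusted p = 0.00308).
The beta-casein gene Csn2, the neighbor of Csn1s1 and with the same palindrome at nearly the same place, did not pass in any comparison. Probe set 1420369_a_at read 15.6, 16.7 and 15.1 in tumorspheres, 16.7, 17.9 and 17.8 in differentiated cells and 17.9, 15.7 and 16.7 in mammospheres. Probe set 1420370_s_at read 58.0, 48.2 and 43.7 in tumorspheres, 56.5, 50.004 and 45.9 in differentiated cells and 45.7, 50.1 and 44.7 in mammospheres. The groups overlap for both. The log2 fold changes of tumorspheres against mammospheres were -0.09 (95% confidence interval -0.19 to 0.01, adjusted p = 0.228 from limma) and 0.02 (-0.17 to 0.20, adjusted p = 0.936).
Csn1s2a and Csn1s2b, which encode alpha-s2-like caseins, were dim as well. The 4 probe sets of Csn1s2a ran from 9.50 to 18.0 over all 9 arrays. The log2 fold changes of tumorspheres lay between -0.01 and 0.06 against mammospheres and between -0.06 and 0.11 against the differentiated cells, none past the test. Its probe set 1436170_a_at passed against the differentiated cells without tumorsphere array 1099A (0.14, adjusted p = 0.0267), and 1438694_at passed after induced differentiation with the values as deposited (0.16, adjusted p = 0.0384). Csn1s2b read 19.8, 16.9 and 16.8 in tumorspheres, 21.4, 19.4 and 25.3 in differentiated cells and 17.0, 15.7 and 16.8 in mammospheres, with log2 fold changes of tumorspheres of 0.04 and -0.18 (adjusted p = 0.780 and 0.0676). The second of these differences was called under 4 of 17 other settings (adjusted p = 0.0252 to 0.217 over the 17). The intensities of both genes are below the lower quartile of each array. Probe sets of 11 genes restricted to other tissues, such as sperm, retina and pancreas, read 8.62 to 192. All values of Wap lie within this range too. So do all values of Csn2 and of the Csn3 probe set 1451851_a_at. The same holds for Csn1s1, Lalba and Wfdc18 in both mammosphere cultures, and for Csn1s1 in tumorsphere array 1101A. It also holds for the Csn3 probe set 1419735_at in every differentiated array and in mammosphere array 858A. Whether such values lie above background cannot be read from the table, which also limits ratios taken to them.

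Lalba encodes alpha-lactalbumin, the regulatory subunit of lactose synthase, and was higher in tumorspheres with 1 array far above the rest. Its intensities were 652, 277 and 236 in tumorspheres, 186, 139 and 151 after induced differentiation and 130, 132 and 150 in mammospheres. The groups do not overlap, and the tumorsphere array on top was 1099A, where Csn1s1 was highest in 1100A. The log2 means were 8.52 ± 0.87 (SD, n = 3), 7.41 ± 0.22 and 7.19 ± 0.10 in the same order. Tumorspheres exceeded mammospheres by 1.33 on the log2 scale (limma, standard error 0.311, adjusted p = 0.0142) and the differentiated cells by 1.11 (adjusted p = 0.0226). Without tumorsphere array 1099A they were 0.84 and 0.62, both past the threshold (adjusted p = 0.00216 and 0.00608).
The call against mammospheres was lost without mammosphere array 859A (adjusted p = 0.0552). That against the differentiated cells was lost without their array 862A or 863A (adjusted p = 0.0758 and 0.0705), with robust moderation (0.0623) and with only the 2 groups (0.0569). Lalba works in a complex with the galactosyltransferase B4galt1, which was named here for that role after its values were seen. B4galt1 read 1103, 1028 and 779 in tumorspheres, 1117, 1083 and 1134 in differentiated cells and 851, 898 and 846 in mammospheres, with a log2 fold change of tumorspheres against mammospheres of 0.32 (adjusted p = 0.173).

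Wap, the whey acidic protein that is a major whey protein of rodent milk, did not differ beyond the spread of the replicates. It read 62.9, 65.1 and 56.1 in tumorspheres, 56.8, 64.2 and 69.4 after induced differentiation and 58.9, 51.0 and 49.5 in mammospheres, and the groups overlap. These values lie within the range of the genes restricted to other tissues, so whether they are above background cannot be read from them. The log2 fold change of tumorspheres was 0.12 against mammospheres (95% confidence interval -0.08 to 0.31, adjusted p = 0.447 from limma) and -0.03 against the differentiated cells (-0.22 to 0.16, adjusted p = 0.844).
Wfdc18, formerly Expi or WDNM1, shares the four-disulfide core domain of Wap and had the smallest p of all the milk protein probe sets. It read 1850, 1911 and 2234 in tumorspheres, 134, 144 and 147 after induced differentiation and 106, 123 and 143 in mammospheres. The tumorsphere arrays lay close together and more than 10 times above the others. The mean intensity was 16.1 times that of mammospheres and 14.1 times that of the differentiated cells. The log2 fold changes were 3.97 (standard error 0.0959, adjusted p = 8.8e-10 from limma) and 3.77 (adjusted p = 3.2e-10), with ranks 6 and 10 from the top. Its probe set carries the suffix s_at, which marks probes that can match transcripts of more than 1 gene, so that a part from a relative cannot be told apart.
Other genes with this domain did not all run the same way. Of 8 measured relatives 2 exceeded the mammosphere level in tumorspheres and 0 fell below it, with the same counts against the differentiated cells. Of all probe sets 6.5% were higher and 7.78% lower than in mammospheres, and 12.2% and 11.4% against the differentiated cells. The 2 relatives were Wfdc2, an epithelial secreted protein, at 1.58 and 1.44, and Slpi, an inhibitor of leukocyte elastase, at 0.78 and 0.46. The others, among them Wfdc1, Wfdc12 and Eppin, lay between -0.11 and 0.12 against mammospheres.

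Mfge8 encodes lactadherin, a protein of the milk fat globule membrane that binds phosphatidylserine and, through its RGD motif, integrins that contain the alpha-v chain. It differed between all 3 cultures. Its intensities were 1830, 2060 and 2891 in tumorspheres, 698, 720 and 675 after induced differentiation and 1082, 1320 and 1284 in mammospheres, and no 2 groups overlap. Among the tumorspheres array 1101A was highest, which was the lowest for Csn1s1 and Lalba. Against mammospheres the log2 fold change of tumorspheres was 1.03 (limma, standard error 0.115, adjusted p = 1.5e-04), and it was 1.60 against the differentiated cells (adjusted p = 1.0e-06). Mammospheres induced to differentiate were below mammospheres by -0.56 (adjusted p = 0.00290), or by -0.85 once arrays were centred on their medians.
The integrin chains that bind Mfge8 were measured too. Against the differentiated cells, tumorspheres were higher for Itgav by 1.38, for Itgb3 by 1.05 and for Itgb5 by 0.53. Against mammospheres they were lower for Itgav by -0.64, higher for Itgb3 by 0.72 (adjusted p = 0.0226 from limma), and did not pass for Itgb5 at 0.20. Of the 3 probe sets of Itgav, 1 was called lower than in mammospheres and 3 higher than in the differentiated cells. Itgav, like Mfge8, was lower after induced differentiation than before it, with intensities of 674, 783 and 771 in differentiated cells against 3281, 3691 and 3167 in mammospheres. These chains were named for their role after their values were seen.

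**Figure D2:**
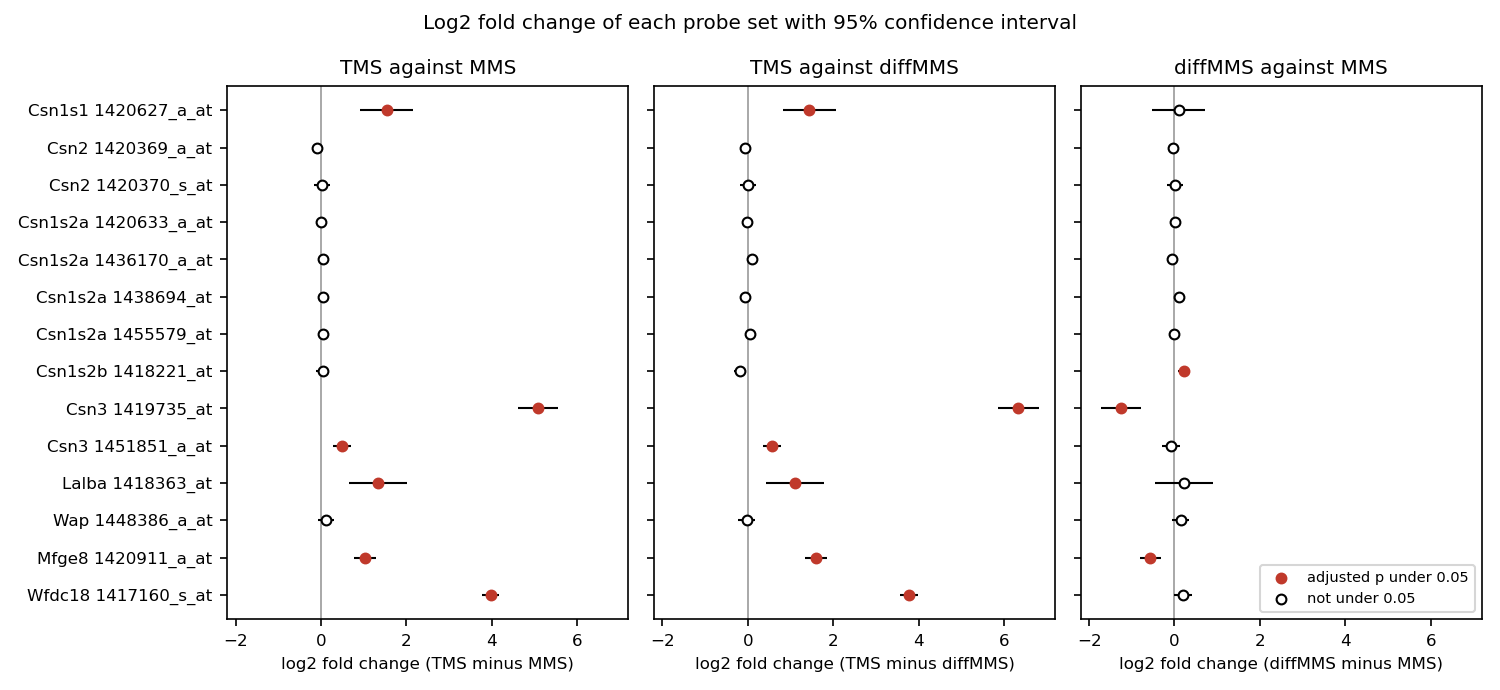
Log2 fold change (horizontal axis) of each of the 14 probe sets with its 95% confidence interval, for TMS against MMS, TMS against diffMMS and diffMMS against MMS. Filled points have an adjusted p under 0.05 from limma, and the probe set 1419735_at of Csn3 lies farthest to the right in the comparisons of tumorspheres, at 5.08 and 6.33.

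Between mammospheres induced to differentiate and mammospheres, Csn1s2b, Csn3 and Mfge8 passed the test. Of 14 probe sets 1 was higher in mammospheres induced to differentiate than in mammospheres and 2 were lower, where 33.1% of all probe sets passed, 16.1% higher and 17% lower. The groups did not overlap for 4 of the 14, beside 51.6% of all probe sets. The median log2 fold change of the 14 was 0.02, beside 0.03 over all probe sets. The 2 lower ones were Mfge8 and Csn3. Csn3 fell by 1.25 on the log2 scale (standard error 0.218, adjusted p = 0.00101 from limma), with the highest differentiated array at 98.2 and the lowest mammosphere array at 141. The differentiated values and this lowest mammosphere value lie within the range of the genes restricted to other tissues. Whether they are above background cannot be read from them. The second Csn3 probe set gave -0.08 (adjusted p = 0.577). The SD of Csn3 on the log2 scale was 0.12 in tumorspheres, 0.19 in the differentiated cells and 0.58 in mammospheres, whose arrays thus varied most.
The higher probe set was that of Csn1s2b, by 0.22 (adjusted p = 0.0251), in intensities no higher than 25.3. This call was lost without mammosphere array 858A, 859A or 860A and without differentiated array 863A (adjusted p = 0.0536, 0.0935, 0.0548 and 0.0792), and without 863A the value was 0.14. Wfdc18 gave 0.20 (95% confidence interval -0.01 to 0.41, adjusted p = 0.129), and passed only without mammosphere array 860A (0.30, adjusted p = 0.0374). Lalba gave 0.22 (-0.46 to 0.90) and Csn1s1 0.10 (-0.53 to 0.72), both not past the test and with wide intervals.

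Of genes that control milk protein synthesis, tumorspheres had higher Elf5, Gata3 and Id2 than either kind of mammosphere culture, by the brightest probe set of each gene. The counts of these lists stand beside 6.5% of all probe sets higher and 7.78% lower in tumorspheres than in mammospheres, and 12.2% and 11.4% against the differentiated cells. Of 12 genes of JAK2-STAT5 signaling and of lactation transcription factors, 7 exceeded the mammosphere level in tumorspheres and 1 fell below it. Against the differentiated cells 7 were higher and none was lower. The list median was 0.51 and 0.33. Elf5, the Ets factor required for alveolar development, read 200, 183 and 282 in tumorspheres, 20.1, 21.8 and 22.3 after induced differentiation and 20.9, 22.1 and 20.7 in mammospheres. All tumorsphere arrays were thus well apart from the others, with log2 fold changes of 2.87 and 2.93. Gata3, a factor of luminal cells, was higher by 1.66 and 1.58, and Id2, an inhibitor of basic helix-loop-helix factors needed for alveolar growth, by 0.72 and 1.83. Of the 3 probe sets of Id2, 1 was called higher than in mammospheres and 3 higher than in the differentiated cells. Jak2 was lower than in mammospheres by -0.39 (adjusted p = 0.0190 from limma), called for 1 of its 2 probe sets, and gave -0.08 against the differentiated cells.
The STAT5 genes themselves differed little. Stat5a read 119, 121 and 108 in tumorspheres, 102, 84.1 and 93.3 in differentiated cells and 103, 103 and 102 in mammospheres, with log2 fold changes of 0.13 against mammospheres (adjusted p = 0.347) and 0.29 against differentiated cells (adjusted p = 0.0198). Stat5b gave 0.21 and -0.15, neither past the test, and was higher after induced differentiation than in mammospheres by 0.36 (adjusted p = 0.0323). The level of RNA does not show the phosphorylated form of STAT5.
Among 10 targets and feedback inhibitors of STAT5, 3 exceeded the mammosphere level in tumorspheres and 0 fell below it, and 2 were higher and 2 lower than in the differentiated cells. Ccnd1, which encodes cyclin D1, was higher by 0.86 and 2.63. Socs2, an inhibitor of cytokine signaling, was higher than in mammospheres by 0.81. Cish, an immediate STAT5 target, gave 0.24 and -0.26, neither past the test. Socs3 was higher than in mammospheres by 0.44, called for 1 of its 3 probe sets. Socs3 and Tnfsf11, which encodes RANK ligand, were lower than in the differentiated cells by -0.67 and -0.37.
Of 8 hormone and growth factor receptors none was higher in tumorspheres than in either culture. Ghr, the growth hormone receptor, was lower by -0.29 and -1.05, called for 1 and 3 of its 3 probe sets. Igf1r was lower than in the differentiated cells by -0.39, called for 1 of its 2 probe sets. Nr3c1, which encodes the glucocorticoid receptor, gave -0.19 and -0.02, neither past the test. The estrogen and progesterone receptor genes Esr1 and Pgr gave log2 fold changes of -0.02 and 0.05 against mammospheres and of 0.00 and -0.08 against the differentiated cells, none past the test. The prolactin receptor gene was not analysed here.

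Other products of secretory cells moved in part. Their counts stand beside 6.5% of all probe sets higher and 7.78% lower in tumorspheres than in mammospheres, and 12.2% and 11.4% against the differentiated cells. Of 11 other secreted milk proteins 4 exceeded the mammosphere level in tumorspheres and 0 fell below it, and 5 were higher and 1 lower than in the differentiated cells. Lcn2, an iron-binding lipocalin, had log2 fold changes of 5.42 and 5.84, and Lyz2, a lysozyme that is also a macrophage gene, 2.29 and 1.49. Saa3, an acute phase protein, was lower than in the differentiated cells by -2.23. Ltf, the milk protein lactoferrin, gave 0.66 and 0.39, both past the test, while Glycam1, a mucin of milk, read 38.8 to 49.3 over all arrays with log2 fold changes of 0.02 and 0.00.
Of 20 genes of the milk fat globule and of milk lipid synthesis 3 exceeded the mammosphere level in tumorspheres and 2 fell below it, with 6 and 3 against the differentiated cells. Srebf1, a master regulator of lipid synthesis, was higher by 1.51 and 1.72, and Acaca, the carboxylase of fatty acid synthesis, by 0.60 and 0.49. Scd1, a desaturase, was higher than in the differentiated cells by 3.45, and Lpl, a lipase that releases fatty acids from plasma lipoproteins, was lower by -0.80 and -3.31. Of proteins that coat the fat globule, Xdh did not pass against either culture, with 0.31 and 0.20. The brightest probe set of Btn1a1 did not pass either, with 0.09 and 0.03, but 1 of its 3 probe sets was called higher than in the differentiated cells. Plin2 was higher than in the differentiated cells by 1.13.
Of 12 genes of lactose synthesis and mineral transport 3 exceeded the mammosphere level in tumorspheres and 0 fell below it, with 4 and 1 against the differentiated cells. The water channel gene Aqp5 was higher by 2.36 and 2.27, and the glucose transporter gene Slc2a1 by 0.62 and 0.46. Of the 3 probe sets of Slc2a1, 1 was called in each comparison. Of 8 neighbors of the casein genes, none differed between tumorspheres and mammospheres (log2 fold changes between -0.10 and 0.14). Against the differentiated cells Jchain was higher by 0.15 (adjusted p = 0.0473 from limma) and Smr2 lower by -0.34 (adjusted p = 0.0419), the latter called for 1 of its 3 probe sets. After induced differentiation, 2 receptors, 1 transcription factor, 4 STAT5 targets, 2 secreted milk proteins, 2 lipid genes and 2 lactose or transport genes were higher than in mammospheres, and 0, 3, 2, 1, 5 and 0 were lower. Of all probe sets 16.1% were higher and 17% lower in this comparison. Among them, Ghr was higher by 0.76, Socs3 by 1.11 and Tnfsf11 by 0.68, and Lpl was higher by 2.51. Id2 was lower by -1.10, Ets2 by -0.63, Ccnd1 by -1.77, Scd1 by -3.01 and Scd2 by -1.24. B4galt1, the partner of Lalba, was higher by 0.60 (adjusted p = 0.00733 from limma), while Lalba itself did not pass.

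**Figure D3:**
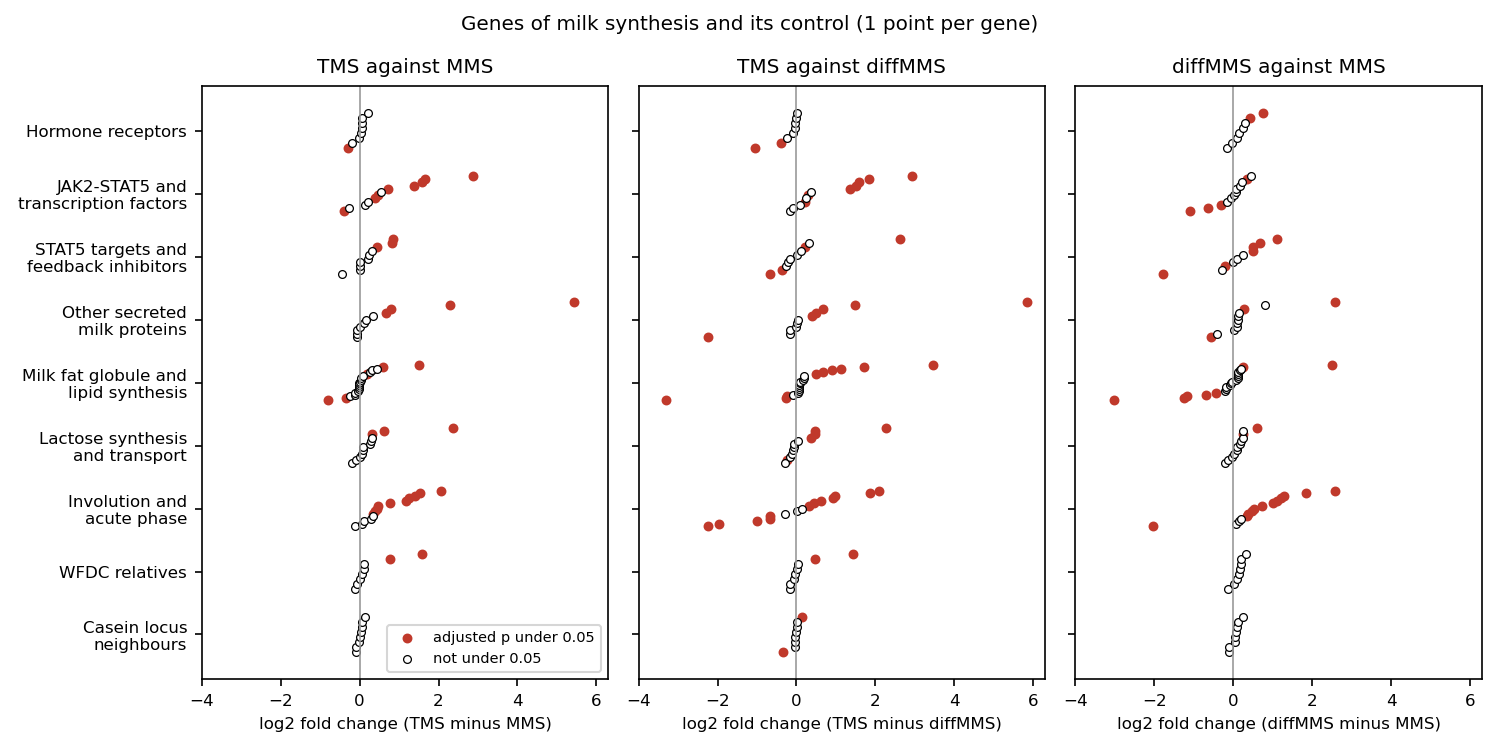
Log2 fold change (horizontal axis) of the measured genes of 9 lists of milk synthesis and its control, with 1 point per gene, for TMS against MMS, TMS against diffMMS and diffMMS against MMS. Filled points have an adjusted p under 0.05 from limma. Lcn2 lies farthest to the right among the other secreted milk proteins, at 5.42 and 5.84, and the neighbors of the casein genes lie near 0.

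Markers of luminal epithelium were also higher in tumorspheres. The counts of the marker lists stand beside 6.5% of all probe sets higher and 7.78% lower in tumorspheres than in mammospheres, and 12.2% and 11.4% against the differentiated cells. Of 16 luminal genes tumorspheres had 11 higher values than mammospheres and 12 higher than the differentiated cells by the test, and none was lower. Their summed intensity was 5474 to 9315 in tumorspheres, 1002 to 1213 after induced differentiation and 970 to 1077 in mammospheres. The highest sum was that of array 1101A, in which Mfge8 and Wfdc18 were highest and Csn1s1 and Lalba lowest among the tumorspheres. Epcam, a surface protein of epithelial cells, read 916, 763 and 1056 in tumorspheres, 58.7, 52.7 and 70.0 in differentiated cells and 58.6, 70.4 and 76.7 in mammospheres. Of 9 fibroblast markers 1 was higher in tumorspheres than in mammospheres and 2 were lower, and 3 were higher and 5 lower than in the differentiated cells. Their summed intensity was 27560 to 31260 in tumorspheres, 37190 to 39200 in differentiated cells and 33170 to 33920 in mammospheres. Krt18, a keratin of luminal cells, read 792, 1088 and 1666 in tumorspheres, 32.4, 38.4 and 42.7 in differentiated cells and 38.0, 50.6 and 65.8 in mammospheres. Krt5 and Krt14, keratins of basal cells, read 90.4 to 102 and 36.3 to 38.4 in mammospheres. Tumorspheres against mammospheres gave log2 fold changes of -0.09 for Krt5 and 1.23 for Krt14 (adjusted p = 0.528 and 0.0515 from limma).
Macrophages also make Mfge8. Of 12 macrophage markers 5 exceeded the mammosphere level in tumorspheres and 0 fell below it, and 3 were higher than in the differentiated cells. Their summed intensity was 1427 to 2392 in tumorspheres, 827 to 1255 in differentiated cells and 708 to 799 in mammospheres. Among the tumorspheres, the sum was highest in array 1100A. Ptprc, the pan-leukocyte marker, read 22.003 to 26.2 in tumorspheres, 20.3 to 23.6 in differentiated cells and 19.5 to 20.4 in mammospheres. Of 7 endothelial markers 4 fell below the mammosphere level in tumorspheres and 0 exceeded it, and of 5 adipocyte markers 1 was lower. Of 10 basal and myoepithelial markers, each by its brightest probe set, none passed between tumorspheres and mammospheres. Krt14 came close, with 1.23 (adjusted p = 0.0515 from limma), and 1 of its 3 probe sets was called higher in tumorspheres. Of the 10, 1 was higher in tumorspheres than in the differentiated cells and 6 were lower, among them the smooth muscle genes Tagln at -3.33, Acta2 at -2.77 and Mylk at -2.00. After induced differentiation 6 of the 10 were higher than in mammospheres, beside 16.1% of all probe sets. The summed intensity of the 10 was 1062 to 1159 in tumorspheres, 3699 to 5773 in differentiated cells and 986 to 1048 in mammospheres. No marker of these lists was at 0. The part of the cell types in the milk protein results was not tested.

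Over the 9 arrays, the probe sets most like each changed milk protein gene were sought among 7645 probe sets of 1 gene that differed between the groups. Pearson correlations are given as a description, since the arrays fall into 3 groups and any gene set apart in tumorspheres scores high. Csn3 was followed most closely by Lcn2 (r = 0.990), Epcam (0.988) and a probe set of Elf5 (0.988). Wfdc18 was followed by Fxyd3, a regulator of the sodium pump (0.997), Atp6v1b1, a proton pump subunit (0.996), and Grhl2, a transcription factor of epithelia (0.996). Each of these 6 genes was higher in every tumorsphere array than in any other array.
Mfge8 was closest to Dgkz (0.993), a diacylglycerol kinase, Nhsl1 (0.986) and Litaf (0.981), which share its high value in array 1101A and its lowest values after induced differentiation. Csn1s1 was closest to St6gal1 (0.983), a sialyltransferase, Arg1 (0.979), an arginase, and the dimmer probe set of Csn3 (0.967), all of them low in 1101A among the tumorspheres. Lalba was closest to Emid1 (0.977), Tnks2 (0.970) and Pitpnc1 (0.966), and the dim Csn1s2b to Gabrr1 (0.963), Magi1 (0.953) and Arhgap20 (0.951). Among the members themselves, Csn3 (1419735_at) correlated with Wfdc18 at 0.971 and with Mfge8 at 0.964, and Wfdc18 with Mfge8 at 0.904. Csn1s1 correlated with Lalba at 0.845, with Wfdc18 at 0.865 and with this Csn3 probe set at 0.8475.

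**Figure D4:**
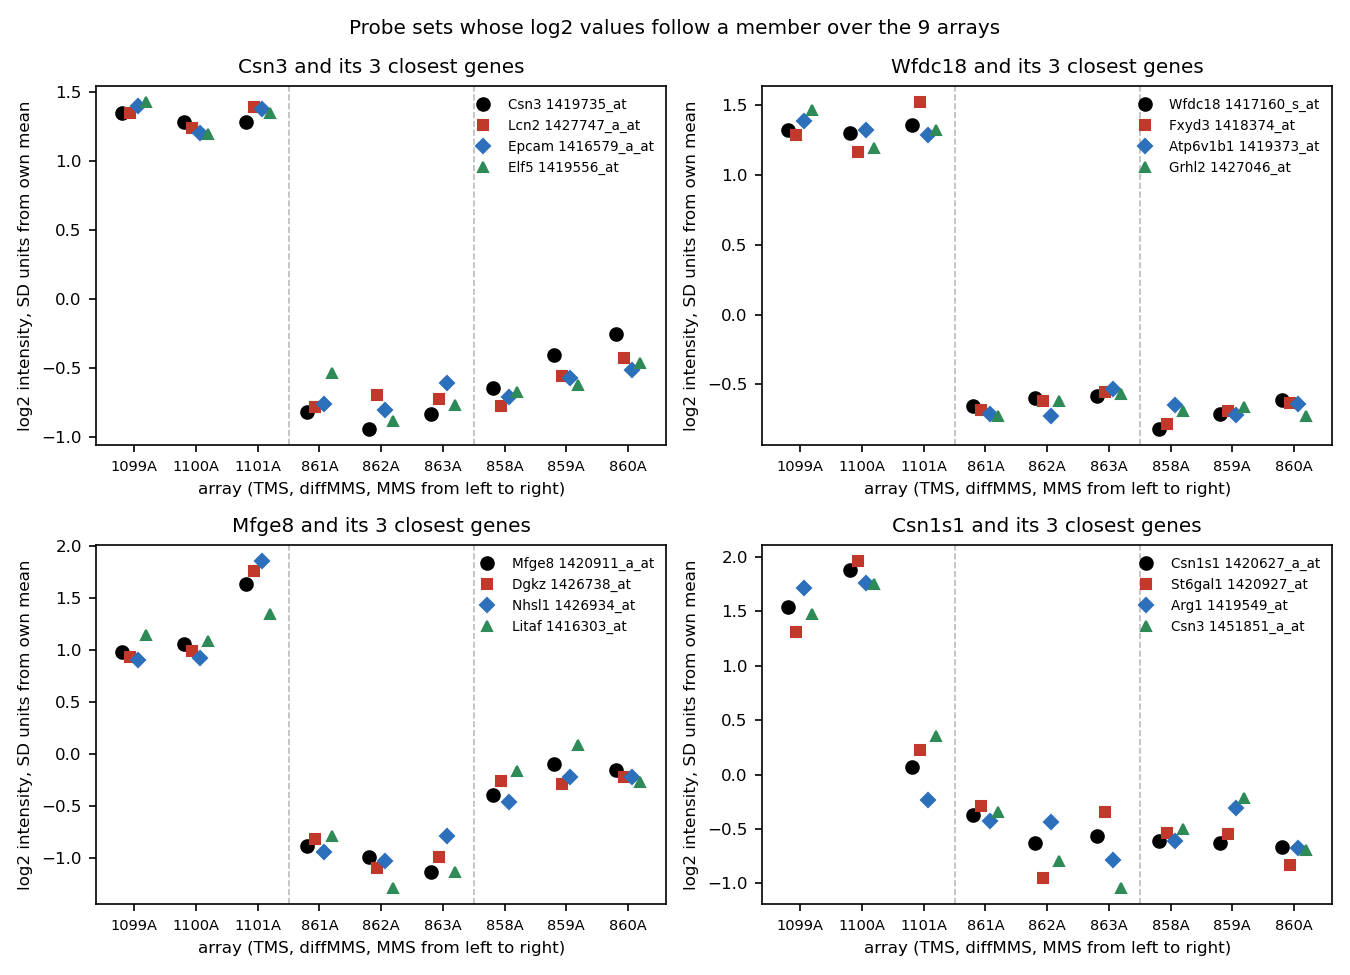
Log2 intensity of Csn3, Wfdc18, Mfge8 and Csn1s1 (black) and of the 3 genes most like each (colored), in units of each probe set's SD from its own mean over the 9 arrays (vertical axis), with 1 point per array. The 3 arrays at the left of each panel are tumorspheres, followed by diffMMS and MMS. Csn1s1 and its closest genes are low in tumorsphere array 1101A, where Mfge8 and its closest genes are highest.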

How the data were processed

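The authors deposited 1 table of probe set intensity values on a linear scale, 1 column per array, already summarised and scaled. Their paper names GeneSpring, and the summary method is not given in the sources used here. Probe sets were named by the platform annotation, and 64 control probe sets were left out. Log2 was taken of each intensity plus 8.67, which is 10% of the overall median, and arrays were quantile normalized. Groups were compared in limma 3.58.1 under R 4.3.3 (lmFit, eBayes with an intensity trend, 6 residual degrees of freedom, two-sided), tested on simulated data first. Labels give no batch or pairing. Replicates are separate preparations.

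Every probe set of the 9 genes is named. From the lists, each gene by its brightest probe set on average, the 2 largest rises and falls per comparison were eligible, and other genes were named for their role. Probes differ in affinity, so levels set beside those of other probe sets, and sums over probe sets, are only a rough guide. The members and lists were chosen with earlier results of these data known. Promoters were taken from RefSeq, GRCm38.p6, and those of Csn3 and Csn1s2b were not used here. Alternatives were other scalings, pseudocounts, filters, variance models, array weights, only the 2 groups, and each array left out. Figures were drawn with matplotlib 3.10.9.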

Additional observations from a re-analysis of the deposited data

How the results depend on the processing

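The calls of Csn3 (both probe sets), Wfdc18, Csn1s1 and Mfge8 in tumorspheres against either culture, and of Csn3 (1419735_at) and Mfge8 after induced differentiation, kept their direction and stayed past the threshold in each of the 18 other settings, or 17 where the filter on dim probe sets removed the probe set (the dimmer one of Csn3). Calls of Lalba and Csn1s2b were lost under the settings given above. With 1 array left out, 5 to 6 milk protein probe sets exceeded the mammosphere level in tumorspheres and 5 to 7 that of the differentiated cells. The number lower in tumorspheres than in differentiated cells was 0, and 1 with each array centred on its median or with array weights, and 0 to 1 with an array left out, each time Csn1s2b. The number higher after induced differentiation was 1, against 2 with the values as deposited, 0 with the filter, which kept 7 of the 14 probe sets, and 0 to 1 with an array left out. Csn1s2b changed sign between tumorspheres and mammospheres without tumorsphere array 1099A (-0.00488), over a range of -0.00488 to 0.0651 with 1 array left out.

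Over all probe sets, tumorspheres had 1471 higher and 1760 lower than mammospheres, against 2730 and 3130 with array weights, and 865 to 1805 higher and 998 to 2283 lower with 1 array left out, the lowest without mammosphere array 859A. After induced differentiation 3643 were higher, and 2293 to 4109 with an array left out. With each array centred, 34% instead of 45.5% of the probe sets called between tumorspheres and mammospheres were higher, and 38% instead of 48.6% higher after induced differentiation. No paired analysis was possible because neither labels nor columns number the replicates. The cause of these differences was not tested. Dim probe sets limit what can be said of Csn2, Csn1s2a and Csn1s2b. Values within the range of genes of other tissues limit it for Wap, and for ratios of Csn3 and Wfdc18 to cultures with such values.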

Other observations

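In each of the 3 comparisons, part of the genes known from mammary involution, the stage that follows milk production, and from the acute phase passed the test. Of 15 measured, 10 exceeded the mammosphere level in tumorspheres and 0 fell below it, where 6.5% of all probe sets were higher and 7.78% lower. Clu, a secreted chaperone, was higher by 2.05 on the log2 scale, and Igfbp5, a binding protein of insulin-like growth factors, by 1.52. Against the differentiated cells 7 rose and 5 fell, beside 12.2% and 11.4% of all probe sets, with Timp1, a protease inhibitor, at 2.09 and Clu at 1.86, and with Saa3 at -2.23 and the cytokine receptor subunit Il6st at -1.97. After induced differentiation 11 of the 15 were higher than in mammospheres, led by Saa3 at 2.58 and Il6st at 1.85, and 1, Timp1, was lower by -2.04, beside 16.1% and 17% of all probe sets.

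The lysozyme genes Lyz1 and Lyz2, relatives of Lalba in sequence, exceeded the mammosphere level by 2.73 and 2.29, and Lyz2 read 594, 1219 and 623 in tumorspheres, 368, 313 and 153 in differentiated cells and 169, 169 and 129 in mammospheres. The tumorsphere array that was highest therefore differed by gene: 1099A for Lalba, 1100A for Csn1s1 and Lyz2 and 1101A for Mfge8 and Wfdc18.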
